A study of Mus musculus with 5 samples.

Results

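Early neutrophil-biased cells were the members of the granulocyte-monocyte progenitor (GMP) gate of mouse bone marrow that lay lowest on a monocyte-to-neutrophil score and held little S100a8 and S100a9 mRNA. They were found in 3 GMP libraries among barcodes with at least 500 genes, at least 1000 UMIs (unique transcript molecules) and at most 10% mitochondrial UMIs. Cells with clear basophil, mast cell or eosinophil transcripts (at least 3 UMIs of Prss34, at least 3 of Gzmb, Cma1 and Scin together, or at least 10 of Prg2, Epx, Prg3 and Ear6 together) were set aside first. The score was the log2 ratio of Irf8, Ms4a6c, Ly86 and F13a1 to Pglyrp1, Cd63, Nkg7 and Prss57, each group summed per 10000 UMIs of the cell with 1 added. Members had to be among the lowest 25% of the score within their own library and to hold less than 10 UMIs of S100a8 and S100a9 per 10000. They numbered 5515 of the 26759 GMP cells that passed the filters, and the series held 42104 such cells in all. GMP replicates 1, 2 and 3 contributed 1874, 2035 and 1606 members.

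Members were set beside 3 classes of the same libraries. The S100a8/9-high cells, 815 in all, came from the same lowest 25% of the score but held 10 or more UMIs of S100a8 and S100a9 per 10000. The monocyte-biased cells, 6312 in all, were the highest 25% of the score. The rest of the library, 19800 cells in all, was every other scored cell, both of these classes included. The comparisons therefore share cells and are not independent of each other.

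The study profiled wild-type Balb/C mice of 8 to 12 weeks by droplet single-cell RNA sequencing (10x Genomics 3' chemistry, which counts transcripts by their 3' end). Bone marrow was enriched for c-Kit with magnetic beads and sorted into 3 gates, all Lin-, CD34+ and c-Kit+: the GMP gate (CD16/32 high and without Sca-1, 3 libraries), the common myeloid progenitor or CMP gate (CD16/32 low and without Sca-1, 1 library) and the lymphoid-primed multipotent progenitor or LMPP gate (Sca-1+ and Flt3+, 1 library). No animal was treated or mutated, so every comparison below is between cells of one library and not between conditions. The GMP libraries are called biological replicates, but whether each came from its own animals is not said. Classes were paired by library. The p-values therefore measure counting error and how far the class difference varied between these libraries, not the spread of levels between libraries.

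GMP libraries held 112327644, 137141095 and 127387528 UMIs in replicates 1, 2 and 3. Pairs of GMP libraries shared 19 to 30 barcodes, at most 0.383% of the smaller library, and at most 2 of the shared barcodes were members in both. Median UMIs per member cell were 10906, 13006 and 15182, against 11463, 13652 and 15895 in the rest of the library. Members were lower in each library by 639 ± 78.3 UMIs (mean ± SD of the difference, n = 3), and the exact sign-flip test over 3 libraries cannot go below its two-sided p of 0.25. With doublet calls, more frequent in the rest, removed, the mean difference was -324 UMIs. S phase genes took 0.309% ± 0.010 of member UMIs and 0.337% ± 0.013 of those in the rest, and G2M genes 0.463% ± 0.036 and 0.532% ± 0.035 (SD, n = 3 each), again lower in 3 of 3 libraries at that p.

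Neutrophils and monocytes arise from shared progenitors in the GMP gate. IRF8 and KLF4 favour the monocyte branch, whereas C/EBPε and GFI1 are needed for the neutrophil branch. Neutrophil granules are filled in sequence: azurophil (primary) granules with myeloperoxidase and serine proteases are made at the promyelocyte stage, and specific (secondary) and gelatinase (tertiary) granules follow. S100A8 and S100A9 form calprotectin, the most abundant protein pair of the mature neutrophil cytosol, and their transcripts increase as the cells leave the early stage.

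The values that chose the members are given as a description. Pglyrp1, Cd63, Nkg7 and Prss57 together had member medians of 27.99, 24.6 and 26.0 UMIs per 10000 in replicates 1, 2 and 3, against 10.2, 9.67 and 9.66 in the rest of the library. Irf8, Ms4a6c, Ly86 and F13a1 together had member medians of 0.651, 0.753 and 0.999, against 5.34, 4.77 and 6.41 in the rest. Irf8 averaged 28.1 CPM (UMI counts summed per library and class, normalised to library size) in members, 30.5 in S100a8/9-high cells, 475 in monocyte-biased cells and 264 in the rest. Pglyrp1, a peptidoglycan recognition protein of neutrophil granules, averaged 432 CPM in members, 698 in S100a8/9-high cells, 48.1 in monocyte-biased cells and 147 in the rest. S100a8 averaged 84.7 CPM in members, 1618 in S100a8/9-high cells, 32.3 in monocyte-biased cells and 138 in the rest.

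The boundaries of the class were set by the rule, and cells lay close to each on both sides. Near neighbours at a percentile cutoff follow from the number of cells, so these values do not show whether the distributions are continuous. The score cutoffs were -3.32, -3.10 and -3.02 in replicates 1, 2 and 3. The 100 cells just inside had median scores of -3.35, -3.13 and -3.06, and the 100 just outside -3.29, -3.06 and -2.99. Along the other border, 44, 41 and 32 cells of the lowest 25% held 8 to 10 UMIs of S100a8 and S100a9 per 10000, and 34, 36 and 29 held 10 to 12. Of the lowest 25%, 86.5%, 88.2% and 86.5% were below the S100a8/9 limit (exact Clopper-Pearson 95% intervals 85.0 to 87.9, 86.8 to 89.5 and 84.9 to 88.1, counting error only). Of the members, 42.2%, 37.9% and 30.3% held no UMI of either gene. These shares fell in the order in which median UMIs per member cell rose, and the part of depth was not tested.

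Of the genes named for this class, Cebpe alone was outside the rule. Cebpe, which encodes the transcription factor C/EBPε of granulocyte differentiation, had 234.5, 222 and 257 CPM in members of replicates 1, 2 and 3, against 110, 115 and 130 CPM in the rest of the library. Members were higher in every library and the groups did not overlap (log2 fold change 1.05 ± 0.02 SE, adjusted p = 5.7e-46, edgeR). After each cell was thinned to 4000 UMIs, a Cebpe UMI was seen in 56.9% ± 4.17 of member cells, 57.8% ± 7.33 of S100a8/9-high cells, 19.9% ± 1.81 of monocyte-biased cells and 33.8% ± 2.77 of the rest (SD, n = 3 each). Unthinned shares were 84.7% in members, 88.2% in S100a8/9-high cells, 50.7% in monocyte-biased cells and 66.1% in the rest. Thinning left out 123, 48 and 21 members with fewer UMIs, and 360, 124 and 76 cells of the rest. Genes of other lineages are given beside these results further on, since Cd63 is also expressed by basophils and mast cells.

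**Figure D1:**
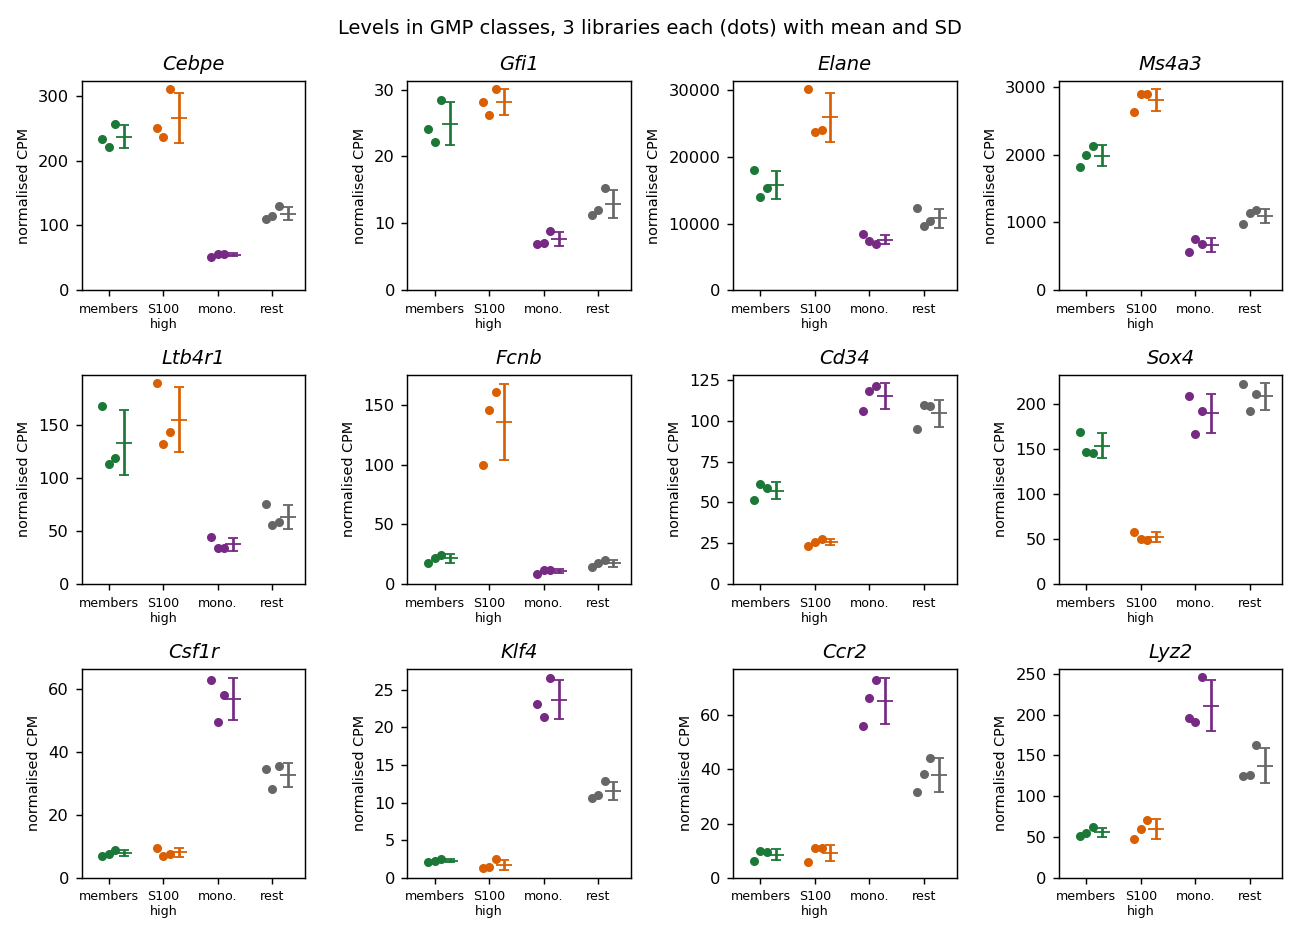
Levels of 12 genes outside the rule in normalised CPM (linear axes from 0) in members, S100a8/9-high cells, monocyte-biased cells and the rest of the library; dots are the 3 GMP libraries, and bars their mean and SD. Cebpe, Gfi1, Elane, Ms4a3 and Ltb4r1 were higher in members than in the rest in every library, Fcnb was highest in S100a8/9-high cells in every library, and Sox4 and Cd34 in members lay between S100a8/9-high cells and the rest.

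Across the genome, 15251 genes outside the rule were tested between members and the rest of the library. Of these, 2845 (18.7%) were higher and 2780 (18.2%) lower in members at an adjusted p below 0.05 (edgeR quasi-likelihood test with the library as a block), and 192 (1.26%) were higher and 341 (2.24%) lower by more than 2-fold. Called genes of either direction were 36.9% of those tested. The median log2 fold change of all tested genes was -0.004, and scaling by total UMIs in place of TMM gave 1881 higher and 4090 lower with a median of -0.06. Since cells were chosen by expression, a gene that follows the genes of the score differs through that choice, and the tests show the size of such differences and how well they repeat, not that members form a separate type. When the UMIs of every cell were split at random into a part that named the classes and a part that was tested, Cebpe was higher by 0.99 on the log2 scale (adjusted p = 1.1e-25), Elane by 0.51 (adjusted p = 1.1e-22) and Gfi1 by 0.81 (adjusted p = 1.7e-12).

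Ltb4r1, Gfi1 and Ms4a3 were higher in members than in the rest. Ltb4r1, the high-affinity receptor for leukotriene B4, had 168.5, 113 and 119 CPM in members and 75.8, 55.5 and 58.4 CPM in the rest, without overlap (log2 fold change 1.11 ± 0.03 SE, adjusted p = 9.7e-45). Gfi1, which encodes a repressor needed for neutrophil differentiation, had 24.1, 22.2 and 28.4 CPM in members and 11.3, 11.98 and 15.3 CPM in the rest, again apart (0.99 ± 0.05, adjusted p = 1.3e-28). Ms4a3, a membrane protein gene of granulocyte-monocyte progenitors, had 1823, 1991 and 2132 CPM in members and 983, 1141 and 1178 CPM in the rest (0.89 ± 0.02, adjusted p = 1.1e-44). All members' libraries lay above all libraries of the rest for these genes. Of genes at 50 CPM or more, others of the largest increases were Sept1 (log2 fold change 1.04), a septin, Vat1 (1.02), Rflnb (0.999), a filamin-binding refilin, Clec4a2 (0.90), a C-type lectin receptor, and Cd24a (0.89), a surface sialoglycoprotein. Alas1 (0.86), the rate-limiting enzyme of heme synthesis, Chd7 (0.86), a chromatin remodeller, Rgcc (0.86), a cell cycle regulator, and Hdc (0.85), which makes histamine, complete, with Cebpe, Ltb4r1 and Ms4a3, the 12 named by the rule.

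The azurophil granule list, whose proteins are made early in the neutrophil line, was mostly higher: 9 of 12 tested genes were higher and 3 lower, with a median log2 fold change of 0.29. The list summed to 44878 ± 3654 CPM in member cells and 33556 ± 2514 CPM in the rest (SD, n = 3 each). Elane, neutrophil elastase, had 18070, 14020 and 15380 CPM in members and 12300, 9653 and 10360 CPM in the rest (0.60 ± 0.02). Each library's members were above that library's rest, and the lowest member library was above the highest library of the rest. Prtn3, proteinase 3, rose by 0.37 and Ctsg, cathepsin G, by 0.59 on the same scale, and Srgn, the proteoglycan that packs granule proteases, by 0.78. Mpo, myeloperoxidase, differed least of these: 8599, 6603 and 8551 CPM in members against 7557, 6110 and 7773 CPM in the rest, with overlapping ranges but a higher value in members of each library (0.19 ± 0.02, adjusted p = 2.8e-11). The 3 lower genes were Ctsc (-0.53), which activates the granule proteases, and the lysosomal glycosidases Hexa (-0.37) and Gusb (-0.30).

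Genes of later granules did not move as a group. Of 18 specific and gelatinase granule genes, 14 passed the low-count filter, and 4 were higher and 7 lower, with a median of -0.10. Defining late genes were near 0: Ltf and Olfm4 did not pass the filter, Camp, the cathelicidin precursor, had 0.821, 0.287 and 0.311 CPM in members and 2.82, 0.167 and 0.296 CPM in the rest, and Mmp8, neutrophil collagenase, had 0.241, 0.395 and 0.311 CPM in members and 1.69, 1.55 and 1.75 CPM in the rest. Camp is counted among the lower genes (-1.03, adjusted p = 0.0026) but was lower in members of replicate 1 alone. The higher genes were Ltb4r1, Anxa1 (0.34), an anti-inflammatory annexin, Fcnb (0.34), ficolin B, and Lrg1 (1.20), a leucine-rich glycoprotein of neutrophil granules. Ltb4r1, described above, is counted with this list although it encodes a receptor. Hp (-0.14), haptoglobin, and Lyz2 (-1.25), lysozyme, were among the lower ones. Lyz2, which monocytes express as well, had 51.1, 55.0 and 61.9 CPM in members and 124, 126 and 163 CPM in the rest. Of 13 surface receptor genes tested, 6 were higher and 5 lower: Fcgr3 (0.56), Trem3 (0.57) and Csf3r (0.22), the G-CSF receptor, were higher, and Ly6c2 (-1.19) and Clec5a (-0.53) were lower. Ly6g, the surface marker of mature neutrophils, did not pass the filter.

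Transcription factors moved in both directions. Of 41 tested, 14 were higher and 14 lower in members than in the rest. Besides Cebpe and Gfi1, the higher ones included Ets1 (1.49), Per3 (1.06), a clock gene, Myb (0.52), a progenitor factor, Xbp1 (0.32), the unfolded protein response factor of secretory cells, and Stat3 (0.28), which acts below the G-CSF receptor. Klf4, a monocyte factor, had 2.08, 2.19 and 2.49 CPM in members and 10.6, 11.04 and 12.9 CPM in the rest (-2.31 ± 0.09, adjusted p = 1.6e-32). Klf4 in every library of the rest was above every member library. Irf5 (-1.25), Klf2 (-1.24), Zeb2 (-0.58), Runx1 (-0.52) and Cebpa (-0.26), which drives entry into the granulocyte-monocyte line, were lower as well. Spi1, which encodes PU.1, did not pass the threshold (-0.03 ± 0.02, adjusted p = 0.25; -0.09, adjusted p = 0.00034, under scaling by total UMIs), nor did Cebpb (-0.01 ± 0.04, adjusted p = 0.91).

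Monocyte genes outside the rule were lower in members. Of 25 tested, 22 were lower and 2 higher, with a median log2 fold change of -0.92, and they summed to 2761 ± 256 CPM in members and 3748 ± 455 CPM in the rest. Csf1r, the M-CSF receptor, had 7.003, 7.395 and 8.81 CPM in members and 34.4, 28.2 and 35.4 CPM in the rest (-2.02 ± 0.05, adjusted p = 1.0e-40), and Ccr2, the chemokine receptor of classical monocytes, had 6.23, 9.80 and 9.44 CPM in members and 31.6, 38.1 and 44.1 CPM in the rest (-2.10 ± 0.05). Neither gene's ranges overlapped. The 2 higher genes were Clec12a (0.49), an inhibitory lectin receptor also found on granulocytes, and Ccl9 (0.09). Dendritic cell genes were lower in 7 of 12 tested and higher in 1, with Cd74, the invariant chain of MHC class II, at 1.79, 1.36 and 1.24 CPM in members and 13.1, 10.7 and 7.88 CPM in the rest. The largest falls at 50 CPM or more were Ighm (-2.26), the IgM heavy chain gene, at 14.7, 9.62 and 13.9 CPM in members and 73.2, 50.3 and 65.7 CPM in the rest, Milr1 (-2.03), an inhibitory immunoglobulin-like receptor, and Emb (-1.68), a membrane glycoprotein.

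Inflammatory and immediate early genes were lower too. All 8 called of 9 tested chemokine and cytokine genes were lower, with a median of -0.58: Cxcl2, a neutrophil-attracting chemokine, had 13.3, 3.84 and 4.35 CPM in members and 46.6, 15.01 and 21.4 CPM in the rest, higher in replicate 1 in both classes, and fell by 1.93 on the log2 scale. Ccl3 (-1.49) and Tnf (-0.97) were lower as well. The list of immediate early and heat shock responses had 16 of 21 genes lower and none higher at that threshold, with a median of -0.21. Fos (-0.75) and Atf3 (-1.25), which encode AP-1 and related transcription factors, were among them, and Jund (-0.04, adjusted p = 0.21) was among the 5 that did not pass.

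Members' cell cycle, secretory and translation genes differed by smaller amounts. Of 52 G2M genes, 41 were lower and 2 higher, with a median of -0.20, among them Top2a (-0.35), topoisomerase II, and Mki67 (-0.47), the proliferation marker. Of 42 S phase genes, 19 were lower and 2 higher, with a median of -0.05. Endoplasmic reticulum folding and secretion genes were higher in 26 of 31 and lower in none, with a median of 0.16 (23 higher and 1 lower when libraries were scaled by total UMIs). Manf (0.29), Kdelr2 (0.33) and Ssr2 (0.33), which serve protein folding and transport into and back to the endoplasmic reticulum, were the leading ones. Ribosomal protein genes were higher in 56 of 84 and oxidative phosphorylation genes in 41 of 83, with medians of 0.06 each, but under scaling by total UMIs 15 ribosomal genes were higher and 4 lower, and 20 oxidative phosphorylation genes were higher and 20 lower.

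**Figure D2:**
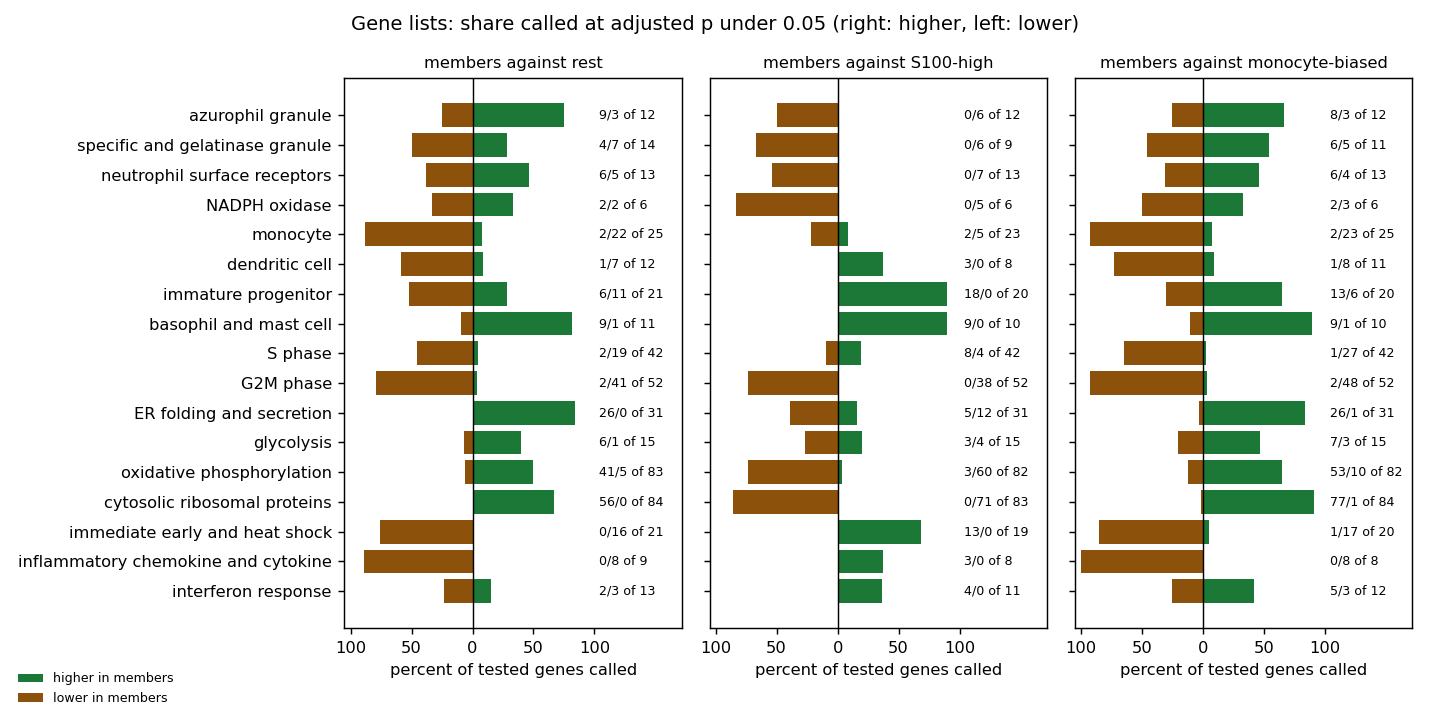
Percent of each list's tested genes called higher (right) or lower (left) in members at an adjusted p below 0.05, for members against the rest, the S100a8/9-high cells and the monocyte-biased cells; the numbers give higher and lower of tested. Monocyte, G2M and chemokine genes were mostly lower in members than in the rest and than in monocyte-biased cells, and immature progenitor genes were mostly higher than in S100a8/9-high cells. When libraries were scaled by total UMIs, oxidative phosphorylation genes were 20 higher and 20 lower in the left panel, and folding genes turned to 13 higher and 5 lower in the middle panel.

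Basophil and mast cell genes were higher in members, with cells of clear basophil, mast cell or eosinophil transcripts set aside from members and the rest alike. Of 11 tested, 9 were higher and 1, Ccl3, lower than in the rest, with a median of 0.44. The list summed to 493 ± 69.3 CPM in members and 404 ± 29.8 CPM in the rest. Cells with 3 or more UMIs of Cpa3, Ms4a2, Mcpt8, Fcer1a, Csrp3 and Gata2 in sum made up 17.1%, 26.6% and 20.2% of members, against 16.6%, 24.9% and 19.8% of the rest. Gata2 was higher by 0.22 in members, but with the cells set aside returned to the rest alone it was at -0.50 (adjusted p = 3.3e-07, edgeR). None of those cells was returned to the members, whatever its score. Of the cells set aside, 84.4%, 86.0% and 81.9% held 3 or more UMIs of these 6 genes. That value therefore does not compare like classes. With the cells of 3 or more such UMIs left out of every class, which lowers these 6 genes by construction, 3 of 10 tested genes were higher and 1 lower, with a median of 0.08. Of 4 eosinophil genes tested, 3 were higher and none lower, with a median of 0.91. They were Cebpe, which that list holds too, Il5ra (0.91), an interleukin 5 receptor chain, at 0.468 CPM on average in members and 0.266 CPM in the rest, and Siglecf (0.90), a sialic acid-binding receptor. Siglecf had 4.93, 5.35 and 5.90 CPM in members and 2.27, 3.22 and 3.36 CPM in the rest. The part of these cells in the neutrophil gene results was not tested beyond leaving them out, under which the azurophil list had 9 genes higher and 3 lower and a median of 0.32. Doublet calls made up 2.89% ± 0.886 of members and 7.97% ± 0.796 of the rest.

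Along the whole score, mean levels of Cebpe, Gfi1, Ms4a3 and Elane fell, and those of Klf4 and Csf1r rose, over several bins. In CPM of all UMIs over 10 equal bins of cells from the lowest score, Cebpe averaged 244, 244, 220, 196, 160, 117, 91.7, 75.5, 62.7 and 46.9. Gfi1 had 26.6 CPM in the lowest bin and 7.57 CPM in the highest, and Ms4a3 had 2227 and 614 CPM. Elane had 18373 and 6922 CPM at these ends, whereas Mpo had 7883 and 7489 CPM, with its lowest value of 6924 CPM in the fifth bin. Klf4 had 2.14 CPM in the lowest bin and 37.2 CPM in the highest, and Csf1r 7.53 and 75.4 CPM. Sox4, a progenitor transcription factor, was highest in the middle, with 119 CPM in the lowest bin, 244 in the fifth and 199 in the highest. These values share cells and depth with the score and are a description.

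**Figure D3:**
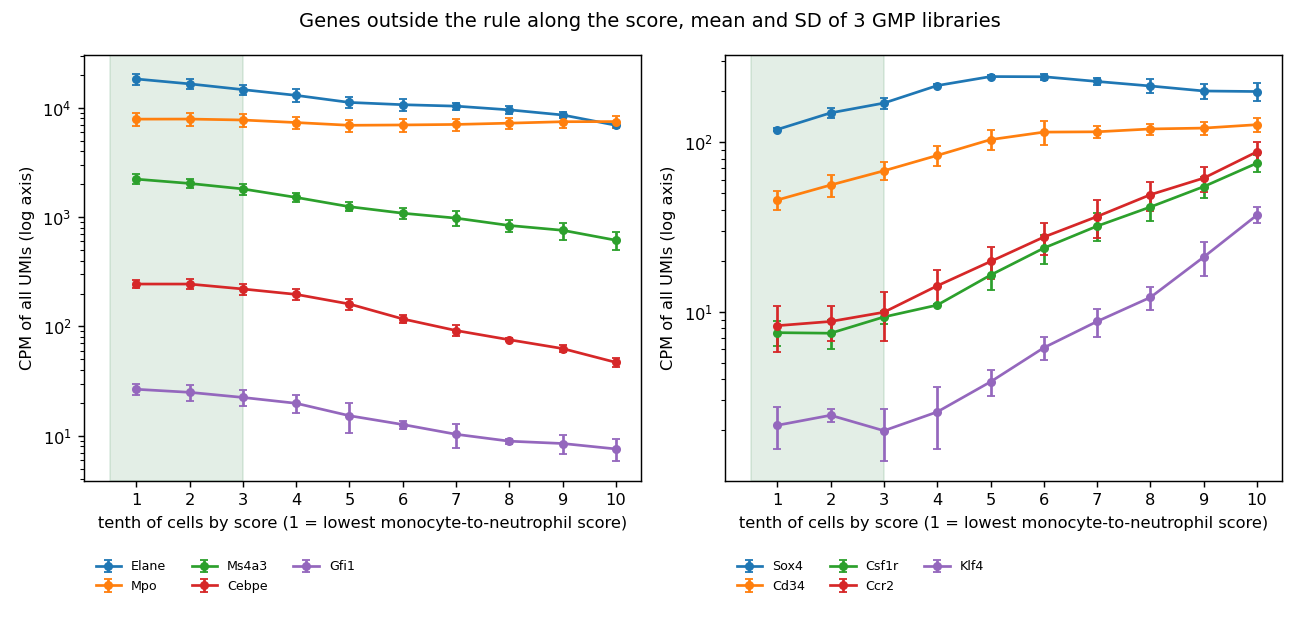
CPM of all UMIs (log axes) of 10 genes outside the rule in 10 equal bins of each library's cells by score, from the lowest monocyte-to-neutrophil score at left; points and bars are the mean and SD of 3 GMP libraries, and the shading marks the lowest 25%. Cebpe averaged 244 CPM in the lowest bin and 46.9 in the highest, Klf4 2.14 and 37.2 CPM, and Mpo 7883 and 7489 CPM.

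The S100a8/9-high cells came from the same lowest 25% of the score but lay lower within it. Their median scores were -4.30, -3.98 and -3.84 in replicates 1, 2 and 3, against -4.09, -3.78 and -3.69 in members. The part of the score in the differences below was not tested. Of 11940 genes tested outside the rule, 1129 (9.46%) were higher and 1527 (12.8%) lower in members, 205 (1.72%) and 77 (0.645%) by more than 2-fold, with a median over all genes of 0.02. Scaling by total UMIs moved that median to 0.17 and gave 3208 higher and 614 lower, so small differences in this comparison depend on the scaling. The S100a8/9-high sums rest on 293, 272 and 250 cells, and 737 genes were higher without GMP replicate 1 and 676 without GMP replicate 2. Granule genes were lower in members, and progenitor genes were higher. S100a8 and S100a9 themselves were chosen and not tested.

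Fcnb, which encodes the pattern recognition lectin ficolin B stored in neutrophil granules, differed most among the 12 largest decreases named. It had 17.5, 21.9 and 24.6 CPM in members and 100, 146 and 161 CPM in S100a8/9-high cells, without overlap (log2 fold change -2.70 ± 0.06 SE). Thinned to 4000 UMIs, 6.22% of members and 34.4% of S100a8/9-high cells held an Fcnb UMI, against 4.35% of monocyte-biased cells and 5.93% of the rest. By library, the thinned shares of members were 4.74%, 6.54% and 7.38%, against 5.10%, 5.79% and 6.90% of the rest. Members were thus lower in replicate 1 and higher in replicates 2 and 3. Unthinned, the shares were 18.5% of members, 64.1% of S100a8/9-high cells, 13.3% of monocyte-biased cells and 16.6% of the rest. Wfdc21, a whey acidic protein family gene, had 43.2, 39.2 and 43.6 CPM in members and 203.5, 184 and 190 CPM in S100a8/9-high cells (-2.22 ± 0.05).

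The promoters of these named genes were searched because many of them move together. The letters TTGCNNAA, which contain the TTGC of the C/EBP binding consensus, were searched on both strands from 250 bases before to 50 after each RefSeq start (build GRCm38.p6). They were in 3521 of 32544 promoters in the table (10.8%). Of the 12 genes most decreased against S100a8/9-high cells, 7 matched the table, and 5 of their 9 promoters (55.6%) held the letters, from the genes C3, Dmkn and Fcnb. Of the 12 most increased, 10 matched and 0 of their 17 promoters held them. Of the 12 most increased against the rest, 8 matched and 1 of 9 promoters (11.1%) did, that of Ms4a3. Of the 12 most decreased against the rest, 10 matched and 0 of 13 promoters did. Against monocyte-biased cells, 1 of 13 promoters (7.69%) of the most increased genes did, again Ms4a3, and 0 of 10 of the most decreased. Promoters of 1 gene overlap, the motif was chosen with earlier results known, and a match is a description of letters and not a binding site. Both promoters below are shown since Fcnb had the largest difference from the S100a8/9-high cells and Ms4a3 was higher in members than in the rest. Capitals mark the matches, which begin at -235 and -123 in Fcnb and at 41 in Ms4a3, counted from 0 at the start base.
Fcnb, chr2:28084829-28085128, minus strand: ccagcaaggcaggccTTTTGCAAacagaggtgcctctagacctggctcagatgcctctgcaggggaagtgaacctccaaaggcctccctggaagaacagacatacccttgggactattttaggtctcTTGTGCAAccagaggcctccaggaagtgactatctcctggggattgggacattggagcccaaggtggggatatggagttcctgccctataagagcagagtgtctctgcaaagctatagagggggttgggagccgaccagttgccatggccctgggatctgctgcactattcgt
Ms4a3, chr19:11640802-11641101, minus strand: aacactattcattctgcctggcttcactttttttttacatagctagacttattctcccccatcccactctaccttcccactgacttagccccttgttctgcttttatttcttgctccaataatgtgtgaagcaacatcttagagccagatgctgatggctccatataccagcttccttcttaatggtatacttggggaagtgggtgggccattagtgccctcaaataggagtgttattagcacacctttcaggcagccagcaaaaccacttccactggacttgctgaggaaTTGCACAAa

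Other granule and host defence genes followed Fcnb. Mgst2 (-1.499), a microsomal glutathione transferase of leukotriene synthesis, Clec4a2 (-1.25), Mrgpra2b (-1.24), a G protein-coupled receptor of neutrophils, Trem3 (-1.04), C3 (-0.93), the central complement component, and Hp (-0.88) were all lower in members. Of 9 tested specific and gelatinase granule genes, 6 were lower and none higher, with a median of -0.88 (4 lower under scaling by total UMIs). Lrg1 (-1.53) had 3.43, 3.70 and 4.97 CPM in members and 10.8, 10.4 and 13.3 CPM in S100a8/9-high cells. Lcn2 (-1.18), lipocalin 2, had 8.45, 9.69 and 10.4 CPM in members and 21.3, 18.3 and 24.3 CPM in S100a8/9-high cells. Neither gene overlapped between the classes.

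Azurophil granule genes were lower in 6 of 12 and higher in none, with a median of -0.23 (6 lower and 3 higher under scaling by total UMIs). Elane had 18070, 14020 and 15380 CPM in members and 30240, 23730 and 24000 CPM in S100a8/9-high cells (-0.74 ± 0.02). Prtn3 (-0.70), Ctsg (-0.50), Srgn (-0.56) and Cst7 (-0.36), a cystatin inhibitor of granule protease activation, followed it. Mpo had 8599, 6603 and 8551 CPM in members and 8245, 6835 and 9086 CPM in S100a8/9-high cells, overlapping, and did not pass the threshold (-0.05 ± 0.02, adjusted p = 0.12).

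Subunits of the phagocyte NADPH oxidase, which makes superoxide, were lower in 5 of 6, and Cybb, the catalytic subunit, had 12.3, 11.3 and 13.6 CPM in members and 20.9, 25.1 and 26.3 CPM in S100a8/9-high cells (-0.99 ± 0.11). Surface receptors were lower in 7 of 13 and higher in none: Itgam (-1.45), the CD11b integrin chain, had 3.38, 3.66 and 3.50 CPM in members and 10.1, 11.3 and 7.27 CPM in S100a8/9-high cells, and Mcemp1 (-1.19), Clec5a (-1.10) and Csf3r (-0.44) were lower as well. Vcam1 (-1.21), an adhesion molecule, and Slc40a1 (-1.33), the iron exporter ferroportin, were lower here although both were higher in members than in the rest (1.54 each). Vcam1 had 33.5, 29.7 and 29.7 CPM in members, 69.7, 69.6 and 71.0 CPM in S100a8/9-high cells and 11.8, 10.9 and 10.1 CPM in the rest. Both belong to the macrophage list, of which C1qa and the other complement C1q genes did not pass the filter.

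Cebpe was slightly lower in members than in S100a8/9-high cells, and Gfi1 did not pass the test. Cebpe had 234.5, 222 and 257 CPM in members and 251, 237.5 and 310.5 CPM in S100a8/9-high cells, with overlapping ranges (-0.19 ± 0.04, adjusted p = 4.7e-06), and under scaling by total UMIs it did not pass (-0.04, adjusted p = 0.41), nor did it without GMP replicate 3 (-0.12, adjusted p = 0.051). Gfi1 had a log2 fold change of -0.20 ± 0.10 SE (adjusted p = 0.13). Cebpb (-0.55) and Cebpd (-0.46), both C/EBP family factors of later myeloid stages, were lower in members. Spi1, at 166 CPM in both classes, did not pass (-0.03 ± 0.04, adjusted p = 0.71). Of 36 factors tested, 9 were higher and 8 lower.

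Members held more mRNA of progenitor genes than S100a8/9-high cells. Of 20 immature progenitor genes tested, 18 were higher and none lower, with a median of 1.17. Sox4 had 170, 147 and 146 CPM in members and 58.2, 49.6 and 48.9 CPM in S100a8/9-high cells (1.54 ± 0.06, adjusted p = 6.5e-142), and Cd34, the sorting antigen, had 51.2, 61.2 and 58.9 CPM in members and 23.6, 25.6 and 27.6 CPM in S100a8/9-high cells (1.13 ± 0.08). Neither gene overlapped. Against the rest of the library, 6 of 21 progenitor genes were higher in members and 11 lower, with a median of -0.13 (8 higher and 7 lower of 20, median 0.04, when classes and values came from separate UMIs). Sox4 (-0.40) and Cd34 (-0.83) were among those lower, with 94.9, 110 and 109 CPM of Cd34 in the rest. Adgrg1 (1.36), an adhesion receptor of primitive cells, Cd27 (1.37), Hmga2 (1.22), an architectural chromatin protein, and Meis1 (1.09), a homeobox factor, were higher in members than in S100a8/9-high cells. Kit did not pass (0.17 ± 0.08, adjusted p = 0.12), nor did Mecom (0.95 ± 0.43, adjusted p = 0.095).

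Basophil and mast cell genes were also higher in members than in S100a8/9-high cells, 9 of 10 tested and none lower, with a median of 1.15. Cpa3, mast cell carboxypeptidase, had 68.2, 78.9 and 47.5 CPM in members and 19.95, 26.2 and 12.5 CPM in S100a8/9-high cells (1.71 ± 0.09). Gata2, a factor of stem cells and of basophils and mast cells, had 14.4, 15.5 and 8.62 CPM in members and 3.27, 2.82 and 3.51 CPM in S100a8/9-high cells (1.95 ± 0.21). Cells with 3 or more UMIs of the 6 basophil and mast cell genes named above made up 21.3% ± 4.84 of members and 9.74% ± 1.96 of S100a8/9-high cells, higher in members of 3 of 3 libraries. With those cells left out, Cpa3 was at 0.36 (adjusted p = 0.059), Gata2 at 0.21 (adjusted p = 0.73) and Mcpt8, a basophil protease, at -0.02 (adjusted p = 0.94), so none of the 3, all of which had chosen the cells left out, passed. Sox4 (1.35), Cd34 (1.04), Angpt1 (1.27) and Apoe (0.64) still did, and 14 of 20 progenitor genes were higher and none lower, with a median of 0.82. Erythroid and megakaryocyte genes were higher in 4 of 7, with the platelet chemokine gene Pf4 at 12.2, 20.8 and 3.77 CPM in members and 3.93, 8.73 and 1.003 CPM in S100a8/9-high cells (1.41 ± 0.19), but at -0.09 when the lowest 15% of the score was taken (adjusted p = 0.89).

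**Figure D4:**
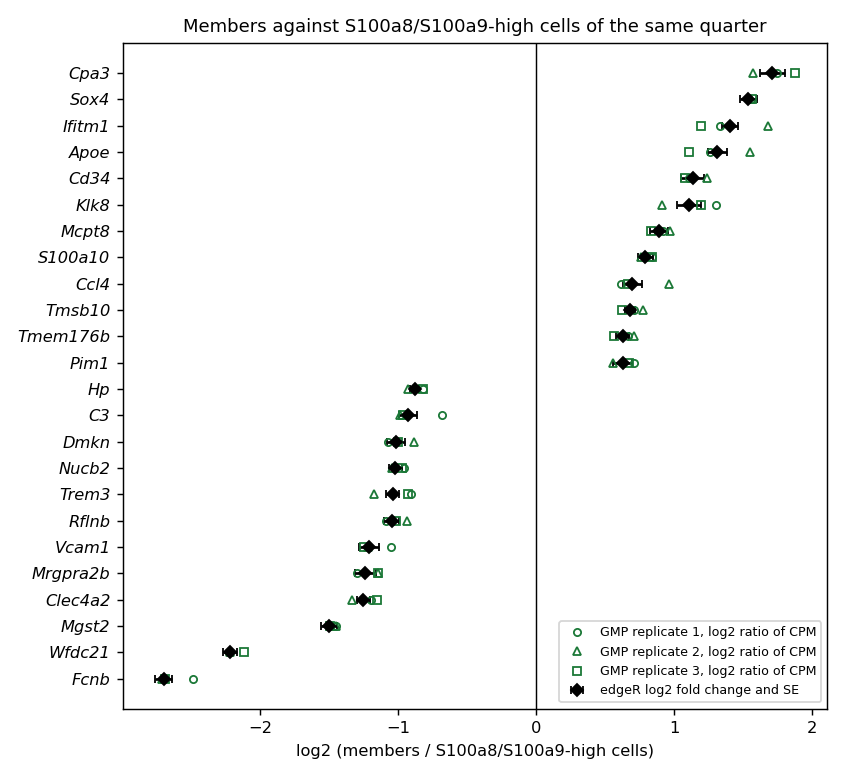
log2 ratio of members to S100a8/9-high cells for the 12 genes with the largest increase and the 12 with the largest decrease at 50 CPM or more; open symbols are the 3 GMP libraries, and diamonds the edgeR log2 fold change with its SE. All 24 genes lay on one side of 0 in every library, from Cpa3 at 1.71 to Fcnb at -2.70.

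Division and stress genes differed between these classes as well. Of 52 G2M genes, 38 were lower in members and none higher, with a median of -0.35 (27 lower and 5 higher under scaling by total UMIs), and Ube2c, a ubiquitin-conjugating enzyme of mitotic exit, had 154, 190 and 186.5 CPM in members and 283, 348.5 and 318 CPM in S100a8/9-high cells (-0.86 ± 0.04). S phase genes were higher in 8 of 42 and lower in 4, and Mcm6 (0.32), a replication helicase subunit, was among those higher. Immediate early and heat shock responses were higher for 13 of 19 genes and lower for none, with a median of 0.40, and in 6 with basophil and mast cell UMI-bearing cells left out. Ribosomal protein genes were lower in 71 of 83 and oxidative phosphorylation genes in 60 of 82, but with scaling by total UMIs 15 ribosomal genes were higher and 21 lower, and 12 oxidative phosphorylation genes were higher and 25 lower. Folding and secretion genes, 5 higher and 12 lower of 31, turned to 13 higher and 5 lower under that scaling.

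Within the lowest 25%, these genes followed S100a8 and S100a9 by degrees across the members themselves. Cells were binned at 0, above 0 to 2, 2 to 5, 5 to 10, 10 to 20, and 20 or more UMIs of both genes per 10000, the first 4 bins being members, with 2049, 2196, 855, 415, 304 and 511 cells. Fcnb averaged 9.39, 16.3, 39.4, 61.7, 79.0 and 153 CPM of all UMIs over these bins, and Elane 13506, 15394, 19107, 21335, 22739 and 24435 CPM. Sox4 averaged 217, 149.5, 88.5, 66.4, 56.9 and 42.4 CPM, and Cd34 72.1, 59.4, 37.5, 27.4, 25.05 and 22.6 CPM. Cebpe showed no such order, at 252, 235, 232, 231, 248 and 244 CPM. Nor did Ltb4r1, at 133, 132, 140, 128, 137 and 145 CPM. SDs between libraries were 15.2 to 46.3 CPM for Cebpe and 17.8 to 34.8 CPM for Ltb4r1. The bins are scaled by total UMIs, under which Cebpe did not pass between members and S100a8/9-high cells (-0.04). Under TMM, Cebpe was lower in members (-0.19). Cpa3 was concentrated where no S100a8 or S100a9 UMI was seen, with 112, 51.4, 29.0, 22.9, 17.4 and 18.2 CPM. Cells of the bin at 0 were shallower, with median UMIs of 9015, 11140 and 13082 in replicates 1, 2 and 3. In the bin above 0 to 2 the medians were 12717, 14299 and 16244. The part of depth in the step between these bins was not tested. In the bins on either side of the limit of 10, Fcnb had 40.2, 72.6 and 72.3 CPM just inside the limit and 53.4, 89.3 and 94.2 CPM just outside it, higher outside in 3 of 3 libraries.

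**Figure D5:**
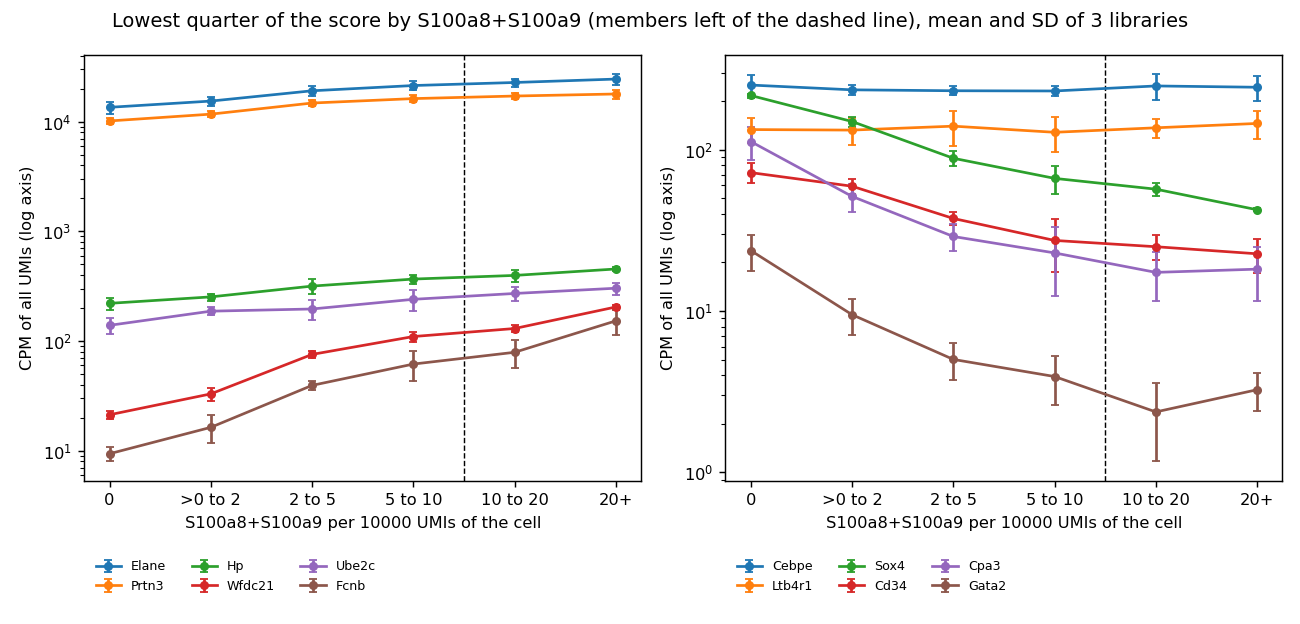
CPM of all UMIs (log axes) of 12 genes in cells of the lowest 25% of the score, binned by S100a8 and S100a9 UMIs per 10000; points and bars are the mean and SD of 3 GMP libraries, and members lie left of the dashed line. Fcnb averaged 9.39 CPM in the lowest bin and 153 in the highest and Sox4 217 and 42.4 CPM, whereas Cebpe averaged 252 and 244 CPM. Cells of the lowest bin held fewer UMIs at the median than those of the next bin in every library.

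Members also varied among themselves in genes of other programmes. At 4000 UMIs per cell, the variance over the mean of 3657 genes with at least 0.1 UMI per cell had a median of 1.02 and a 90th percentile of 1.10. Ifitm1, an interferon-induced membrane protein expressed by early progenitors, had a ratio of 24.996, 14.1 and 16.6 in replicates 1, 2 and 3, and Mcpt8 had 11.4, 16.5 and 7.71. Among azurophil genes, the ratio averaged 11.9 for Elane, 7.71 for Prtn3 and 4.93 for Mpo. Jun (4.24), Lmo4 (3.94), a LIM-domain cofactor, Apoe (3.73), Cpa3 (3.49) and Ube2c (2.17) were above the 90th percentile too. The ratio grows with the mean for a gene of given relative spread, so it does not rank genes of unlike level.

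The monocyte-biased cells stand at the other end of the score. Of 13708 genes tested, 3482 (25.4%) were higher and 3564 (26.0%) lower in members, 563 (4.11%) and 586 (4.27%) by more than 2-fold, with a median over all genes of -0.009. Scaling by total UMIs gave 2453 higher and 5132 lower with a median of -0.10. Cebpe had 234.5, 222 and 257 CPM in members and 51.9, 55.8 and 56.5 CPM in monocyte-biased cells (2.11 ± 0.03, adjusted p = 1.0e-25), and Gfi1 24.1, 22.2 and 28.4 CPM in members and 6.91, 7.10 and 8.85 CPM in monocyte-biased cells (1.70 ± 0.06). Neither overlapped. Sept1 (2.13), Vat1 (2.05), Rflnb (1.87), Hdc (1.86), Ltb4r1 (1.82), Rgcc (1.71), Ms4a3 (1.58) and Srgn (1.49) were among the 12 largest increases. Ets1, a lymphoid and progenitor factor, had 5.71 CPM on average in members and 0.671 in monocyte-biased cells (3.06 ± 0.15), and Vcam1 31.0 CPM in members and 3.84 in monocyte-biased cells (2.997 ± 0.07).

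Monocyte and chemokine genes were lower in members than in monocyte-biased cells. Of 25 monocyte genes, 23 were lower and 2 higher, with a median of -1.62, and all 8 chemokine and cytokine genes tested were lower, with a median of -1.05. Ighm (-3.14), Prdx4 (-3.12), a peroxiredoxin of the endoplasmic reticulum, Ccr2 (-2.93), Cxcl2 (-2.89), Csf1r (-2.86), Rassf4 (-2.38), Cybb (-2.33), Ccl3 (-2.14) and Klf2 (-1.90) were among the 12 largest decreases named. Klf4 had 2.08, 2.19 and 2.49 CPM in members and 23.2, 21.4 and 26.6 CPM in monocyte-biased cells (-3.39 ± 0.09), and Ctss, the cathepsin of antigen presentation, 1.497, 1.40 and 1.48 CPM in members and 23.8, 17.7 and 21.1 CPM in monocyte-biased cells (-3.82 ± 0.10). Cd34 (-1.01) and Bcl2 (-1.55), an inhibitor of apoptosis, were lower in members, whereas Hlf (1.23), a stem cell factor, and Kit (0.40), the sorting antigen c-Kit, were higher. Gata2 was higher too (1.22), but at -0.24 (adjusted p = 0.16) with cells of basophil and mast cell UMIs left out. Among 20 immature progenitor genes, 13 were higher and 6 lower.

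Azurophil genes were higher than in monocyte-biased cells in 8 of 12 and lower in 3, with a median of 0.42. Elane had 18070, 14020 and 15380 CPM in members and 8395, 7396 and 7004 CPM in monocyte-biased cells (1.05 ± 0.02), whereas Mpo had 8599, 6603 and 8551 CPM in members and 7650, 6036 and 7144 CPM in monocyte-biased cells, overlapping but higher in members of each library (0.18 ± 0.01). Basophil and mast cell genes were higher in 9 of 10, with a median of 1.69, and in 4 of 10 with UMI-bearing cells left out, with a median of 0.26. G2M genes were lower in 48 of 52 and higher in 2, with a median of -0.34. Ribosomal protein genes were higher in 77 of 84 (46, with 6 lower, under scaling by total UMIs).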

How the data were processed

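Single-cell 3' libraries of 3 GMP, 1 CMP and 1 LMPP sample were used as deposited UMI counts per gene and barcode, which the authors made with Cell Ranger against mm10, per the submitters' processing notes (version 3.1.0, with Seurat 3.1.1 named beside it) and per the file headers (version 6.1.1). The counts are filtered barcode matrices with no further normalization. The score, the members and the gene lists were chosen with earlier results of these data known. UMIs were summed per GMP library and class. Classes were compared with edgeR 4.0.16 (R 4.3.3): TMM scaling, the default filter on low counts, a quasi-likelihood test with the library as a block, since both classes come from the same library, and Benjamini-Hochberg adjustment over all genes tested. The fit has 2 residual degrees of freedom, so p-values rest largely on a spread shared over genes. That spread was estimated in each comparison by itself, so p-values of different comparisons are not on the same scale. The SE of a log2 fold change was derived from the test, as its absolute value divided by the square root of the F statistic. Genes of the rule stayed in the scaling and were left out of testing. Normalised CPM used 1 TMM scaling over all 12 sums. Named genes passed an adjusted p of 0.05 in 1 direction in all 3 libraries at a mean of 50 CPM or more in the higher class, the 12 largest per direction, besides up to 4 per list and all tested transcription factors. Doublets were called from simulated pairs, and called cells were kept except in 1 alternative. The tests were tried on simulated sums with known changes and 1 fixed spread. No cells were chosen by expression there, so that trial cannot show the effect of such a choice. Intervals cover counting error only.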

Additional observations from a re-analysis of the deposited data

How the results depend on the processing

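Counts of called genes moved with the test and the amount of data, and the cause was not tested. Against the rest of the library, 2845 genes were higher and 2780 lower in edgeR. DESeq2's Wald test gave 1798 and 1379, cells thinned to 4000 UMIs 1708 and 1437, cells below the median cell cycle share 1504 and 1538, the separate UMI parts 1785 lower, and scaling by total UMIs 1881 higher. Against S100a8/9-high cells (1129 and 1527), these gave 305 and 931 with DESeq2, 401 and 796 thinned, 524 and 1002 below the median cell cycle share, 671 higher with separate UMI parts, and 3208 and 614 with scaling by total UMIs. A score limit of 15% gave 690 higher and leaving out cells with basophil and mast cell UMIs 703. Against monocyte-biased cells (3482 and 3564), DESeq2 gave 2123 lower, thinning 2231 and 2178, and cells below the median cell cycle share 2238 and 2324. Without the replicate block, which pairs the classes of one library, 341 were higher and 441 lower against the rest, 89 and 140 against S100a8/9-high cells, and 1297 and 1385 against monocyte-biased cells. Leaving out each GMP library in turn gave 2042 to 2274 higher and 1862 to 2382 lower against the rest, 676 to 771 and 1113 to 1291 against S100a8/9-high cells, and 3106 to 3265 and 3086 to 3347 against monocyte-biased cells.

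The share of the lowest 25% of the score that was S100a8/9-low, 87.1%, was 80.5% with a limit of 5 UMIs per 10000, 91.9% with 20, and 86.5% to 87.4% with 1 library left out. The difference in UMIs per cell between members and the rest, -639, was -936 with a score limit of 15%, -324 with doublet calls removed, and -680 to -602 with 1 library left out. S and G2M shares kept their direction under every alternative run. Among values of named genes under these alternatives, 5932 kept their direction and side of the threshold or moved by less than their spread, 383 kept their direction but no longer passed the threshold, 67 came to pass it, and 20 changed sign. With cells of basophil and mast cell UMIs left out, the log2 fold change against the rest was -0.27 for Gata2, -0.053 for Lmo4 and -0.043 for Gata1. Against S100a8/9-high cells it was -0.036 for Nfkbia, -0.015 for Mcpt8, -0.60 for Ms4a2 and -0.057 for Lmo4, and against monocyte-biased cells -0.24 for Gata2, -0.017 for Ms4a2 and -0.062 for Lmo4. With the cells set aside returned to the rest alone, and none to the members, Gata2 was at -0.50, Lmo4 at -0.078 and Gata1 at -0.085. Against S100a8/9-high cells, Per3 was at 0.10 thinned, Cxcl2 at -0.0077 below the median cell cycle share, Pf4 at -0.093 with a score limit of 15%, and Cox4i1 at 0.0070 and Gapdh at 0.063 with scaling by total UMIs. Below the median cell cycle share, Tubb4b was at 0.18 and Hmgb2 at 0.034 against monocyte-biased cells.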

Other observations

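The same score and the members' limit on S100a8 and S100a9 were applied to the other 2 sorted gates. Cells had to lie within the mean GMP score limit of -3.15 and below the S100a8 and S100a9 limit. Both held for 709 of 7226 scored CMP cells (9.81%, 95% exact interval 9.14 to 10.5). They also held for 283 of 8014 scored LMPP cells (3.53%, 3.14 to 3.96). S100a8/9-high cells of these gates are therefore not among the cells described below. There is 1 library of each gate, so no test was made, and intervals cover counting error only.

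The 709 CMP cells held transcripts of several lineages. Cebpe was at 7.09 CPM of all UMIs (exact Poisson interval 5.19 to 9.46) and Elane at 120 CPM (112 to 129), with Mpo at 982 CPM, Prtn3 at 524 CPM and Ctsg at 217 CPM. Gata1, the erythroid and megakaryocyte factor, was at 61.7 CPM and Car1, an early erythroid carbonic anhydrase, at 119 CPM. Of the score's own genes, Nkg7 was at 480 CPM and Cd63 at 571 CPM, while Pglyrp1 was at 25.1 CPM and Prss57 at 24.8 CPM.

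The 283 LMPP cells held both neutrophil and stem cell transcripts. Cebpe was at 85.1 CPM (75.2 to 96.0), Elane at 7145 CPM, Ms4a3 at 986 CPM and Gfi1 at 34.0 CPM, beside 382 CPM of Hlf, a stem cell transcription factor. Pglyrp1 was at 288 CPM there. Whether single cells held both was not tested.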
